A study of Mus musculus with 8 samples.

Results

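Transcripts of the microRNA processing machinery were examined in intestinal epithelial cells (IECs) of the colon and the ileum. The 9 genes are Drosha, Dgcr8, Xpo5, Dicer1, Tarbp2, Ago1, Ago2, Ago3 and Ago4, of 40178 genes that the colon and the ileum table list between them. They were chosen by gene name, with earlier results of these data known, and each has a row of raw counts in both tables. RNAseq was performed on 8 libraries from 4 mice. WT mice carried DDX5(+/+) with Vil1Cre(+), and DDX5KO mice carried DDX5(fl/fl) with Vil1Cre(+), so all 4 mice expressed Cre recombinase from the Vil1 promoter, which acts in the gut epithelium. Each genotype has 2 mice, each with a colon and an ileum library. The labels give an age of 8 weeks for the cohort and no treatment for these healthy samples, and the IECs were released from the gut wall by EDTA fractionation. DDX5 is an RNA helicase that is known as an accessory factor of the Drosha complex. The comparisons therefore ask whether the machinery's own transcripts differ without epithelial DDX5, and whether they differ between ileum and colon.

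MicroRNAs are small RNAs that guide Argonaute proteins to messenger RNAs, which are then repressed or degraded. A primary transcript is cut in the nucleus by the Microprocessor, made of the RNase III enzyme DROSHA and its RNA-binding partner DGCR8. Exportin-5, the product of Xpo5, carries the resulting hairpin to the cytoplasm. There DICER1, with its partner TARBP2, cuts the hairpin to a short duplex, and 1 strand is loaded into an Argonaute encoded by Ago1 to Ago4. AGO2 is the Argonaute known for slicing a fully paired target. In the gut epithelium of mice, loss of Dicer1 is known to disturb goblet cells and barrier function.

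The libraries measured the long RNAs of these genes and of primary microRNA transcripts, and mature microRNAs were not measured. The mature sequences below belong to hairpins whose genes or host transcripts are described further on, and they are shown because their seeds, in capitals (bases 2 to 8), set which messages a microRNA pairs with. They are RefSeq sequences on GRCm38.p6, written 5′ to 3′.
mmu-miR-1306-5p: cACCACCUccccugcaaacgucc
mmu-miR-196a-5p: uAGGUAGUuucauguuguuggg
mmu-miR-23a-3p: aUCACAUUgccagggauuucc
mmu-miR-27a-3p: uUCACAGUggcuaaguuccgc
mmu-miR-200a-3p: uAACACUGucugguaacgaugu
mmu-miR-194-5p: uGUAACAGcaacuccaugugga
mmu-miR-15a-5p: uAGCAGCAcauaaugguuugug
mmu-miR-16-5p: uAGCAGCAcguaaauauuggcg
mmu-miR-17-5p: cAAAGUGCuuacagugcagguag
mmu-miR-20a-5p: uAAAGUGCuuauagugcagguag
The hairpin genes described below give miR-196a-5p (chr11:96265187-96265208, plus strand), miR-23a-3p (chr8:84208563-84208583, plus), miR-27a-3p (chr8:84208727-84208747, plus), miR-200a-3p (chr4:156054911-156054932, minus) and miR-194-5p (chr1:185313325-185313346, plus). The same miR-194-5p also comes from Mir194-2 (chr19:6264658-6264679, plus). Of the others, miR-15a-5p and miR-16-5p share the seed AGCAGCA and have their hairpins at the Dleu2 locus (chr14:61632075-61632096 and chr14:61631936-61631957, minus strand). The miR-17-5p and miR-20a-5p sequences share the seed AAAGUGC and come from Mir17hg (chr14:115043684-115043706 and chr14:115044183-115044205, plus strand). The seeds of miR-23a-3p (UCACAUU) and miR-27a-3p (UCACAGU) are not the same, although both hairpins lie on chromosome 8. The miR-1306 hairpin (chr16:18284239-18284317, minus strand) is shown because it lies inside a coding exon of Dgcr8. The Microprocessor is known to cut hairpins in the Dgcr8 message itself.

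On mm10 (GRCm38), Ago3, Ago1 and Ago4 lie in tandem on the minus strand of chromosome 4, from 126331704 to 126533472, with gaps of 5455 and 20957 bases between them. Ago2 is on chromosome 15 (73095844 to 73184935, minus strand). Drosha (12824815 to 12935291, plus strand) and Tarbp2 (102518192 to 102523676, plus strand) are also on chromosome 15. Dgcr8 is on chromosome 16 (18253948 to 18289246, minus strand), Dicer1 on chromosome 12 (104687742 to 104751952, minus strand) and Xpo5 on chromosome 17 (46202782 to 46243598, plus strand). The strand setting of the authors' counting is not given in the sources used here. This touches Dgcr8, whose exons overlap those of Trmt2a on the other strand over 825 bases, which also shares 327 exon bases with Gm49776 on its own strand, and Ago2, which overlaps Chrac1 over 219 bases. The transcripts of Tarbp2 share 14.3% of their 50-base words with a pseudogene, Gm18584, so some of its reads may be counted for neither or for the wrong locus.

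Total counts per library ranged from 11571061 to 22984283, with both DDX5KO ileum libraries the shallowest, and the 9 genes together took 0.0402% to 0.0556% of them. DDX5KO ileum replicate 2 stood apart, with 19.5% of its counts on 3 genes made of repeats (Gm21738, Gm10800, Gm10801), against 4.04% and 3.93% in WT ileum and at most 0.261% in the other 5 libraries. Levels are given as CPM, the count of a gene over the scaled total of its library. The Ddx5 transcript was 771 and 706 CPM in WT colon, 367 and 355 CPM in DDX5KO colon, 700.5 and 700.3 CPM in WT ileum, and 340 and 326 CPM in DDX5KO ileum. Its log2 fold change was -1.04 in the colon (adjusted p = 0.0866, edgeR's quasi-likelihood test) and -1.07 in the ileum (adjusted p = 0.0270). The colon difference was called in 3 of 8 alternatives and in 3 of 8 fits with 1 library left out, and the ileum difference in 6 of 8 and 0 of 8, with log2 values between -1.11 and -0.97 throughout. The transcript of the floxed gene was thus still counted in DDX5KO IECs, and no exon-level values were analysed. Here and below, fits with 1 library left out took both tissues in 1 model without a block. They therefore differ from the main fit in more than that library. The summed level of 6 epithelial markers was 8052 to 15073 CPM in every library, while 4 muscle markers summed to at most 1.31 CPM and 5 B and plasma cell markers to at most 3.00 CPM. T cell markers were present, and their values are given below.

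The members spanned a wide range of levels. Divided by exon length (CPM per kb), the scale that allows genes to be compared, Ago2 was the highest member in all 4 groups by the deposited exon length. It was at 8.16 ± 0.32 CPM per kb in WT colon, 8.08 ± 0.93 in DDX5KO colon, 17.5 ± 0.61 in WT ileum and 18.6 ± 2.5 in DDX5KO ileum (mean ± SD, n = 2 mice each). Ago4 was the lowest, from 1.29 ± 0.21 CPM per kb in WT colon to 0.564 ± 0.074 in DDX5KO ileum. Ago3 was 8th of 9 in every group, at 1.62 to 2.36 CPM per kb. Drosha, Xpo5 and Dicer1 followed Ago2 in every group. In WT colon they were at 5.70, 5.51 and 5.08 CPM per kb, and the replicates of Xpo5 overlapped those of both others. In both ileum groups Drosha stood clear of Xpo5, at 8.94 against 5.96 CPM per kb in WT and 8.31 against 6.26 in DDX5KO. Ago1, Dgcr8 and Tarbp2 lay between 3.20 and 4.58 CPM per kb in all groups, and Tarbp2 and Ago1 overlapped in both DDX5KO groups. Among 13101 protein-coding genes tested, the mean level per kb of Ago2 was higher than that of 75.2% of genes and that of Ago4 higher than that of 19%. The order depends on the length used. When each gene was instead divided by the length of its transcript with the longest coding sequence, an alternative chosen after seeing the data, Tarbp2 was the highest member in both colon groups. It was then at 11.2 CPM per kb in WT colon and 12.2 in DDX5KO colon, against 8.30 and 8.22 for Ago2. Ago2 stayed highest in both ileum groups, and Ago3 and Ago4 stayed 8th and 9th in all groups.

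**Figure D1:**
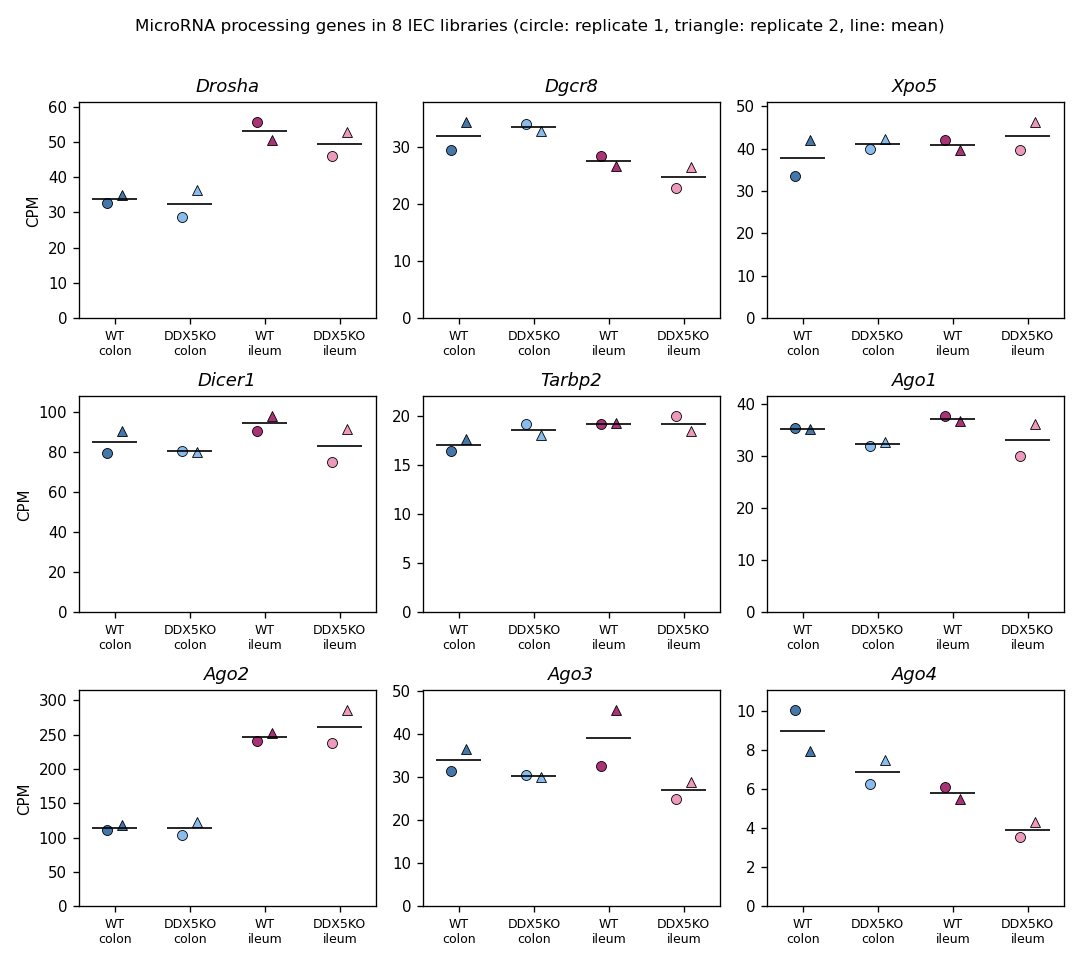
Level of each of the 9 genes in the 8 libraries, as CPM on a linear axis from 0, by group. Circles are replicate 1, triangles are replicate 2 and lines are the mean of both, and Drosha and Ago2 lie higher in all 4 ileum libraries than in all 4 colon libraries.

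Drosha, Dgcr8, Xpo5, Dicer1 and Tarbp2, the genes of the cutting and export steps, did not pass the test for a difference between DDX5KO and WT in either tissue. Drosha was 32.7 and 35.0 CPM in WT colon against 28.6 and 36.3 CPM in DDX5KO colon. Its level was 55.6 and 50.5 CPM in WT ileum against 45.9 and 52.8 CPM in DDX5KO ileum, so that the genotypes overlapped in both tissues. The fitted DDX5KO over WT ratio of Drosha was 0.948 in the colon (95% interval 0.780 to 1.15) and 0.930 in the ileum (0.747 to 1.16). Dicer1, the cytoplasmic enzyme, was 79.5 and 90.6 CPM in WT colon and 80.6 and 80.2 CPM in DDX5KO colon. In the ileum Dicer1 was 90.6 and 98.1 CPM in WT and 75.0 and 91.5 CPM in DDX5KO. Its DDX5KO over WT ratio was 0.940 in the colon (0.790 to 1.12) and 0.880 in the ileum (0.714 to 1.09). Dgcr8 was 29.5 and 34.3 CPM in WT colon, 34.1 and 32.7 in DDX5KO colon, 28.5 and 26.7 in WT ileum, and 22.9 and 26.4 in DDX5KO ileum. The ileum libraries of Dgcr8 did not overlap between genotypes, with a ratio of 0.892 (0.704 to 1.13). Xpo5 ranged from 33.6 to 46.3 CPM over all 8 libraries, and Tarbp2 from 16.4 to 20.0 CPM. Their ratios were 1.08 and 1.08 in the colon and 1.05 and 1.00 in the ileum, with every interval within 0.789 and 1.34.

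In the colon 0 of the 9 members passed an adjusted p of 0.05 in edgeR's test, as did 0.0% of the 15362 genes tested (0 genes). At an unadjusted p under 0.05, 0 members and 1836 genes (12.0%) passed. In the ileum 0 of 9 members passed, against 98 of 14068 genes (0.697%), or 1 gene in the fit without the replicate block. At an unadjusted p under 0.05 1 member and 1736 genes (12.3%) passed in the ileum. DESeq2, with and without the replicate block, called 0 members in both tissues. It called 116 and 188 genes in the colon and 39 and 55 in the ileum. The median log2 fold change of the 9 members was -0.077 in the colon and -0.16 in the ileum, beside -0.00042 and -0.0046 over all genes tested. The genotype comparisons of colon and ileum come from the same 4 mice and are not independent.

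Among the Argonautes, Ago3 and Ago4 had the lowest DDX5KO over WT ratios of the 9 genes in both tissues. Ago3 was 32.6 and 45.5 CPM in WT ileum and 24.8 and 28.9 CPM in DDX5KO ileum, with no overlap. Its ratio was 0.697 (0.555 to 0.875), and its unadjusted p of 0.0051 became an adjusted p of 0.178 in edgeR's quasi-likelihood test. Ago3 was the 1 member past the study's criterion for a DDX5-dependent transcript, an absolute log2 fold change of at least 0.5 with an unadjusted p under 0.05, which 341 of 12064 protein-coding genes (2.83%) passed in the lower direction and 6.61% in either. In the colon 0 members passed that criterion, against 834 of 12557 genes (6.64%). The 2 WT ileum libraries of Ago3 lay apart. Without WT ileum replicate 2 its log2 fold change was -0.28, and without WT ileum replicate 1 it was -0.76, beside -0.52 with both. Without DDX5KO ileum replicate 1, 0 members passed the study's criterion in the ileum.

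Ago4 was 6.09 and 5.48 CPM in WT ileum and 3.56 and 4.28 CPM in DDX5KO ileum, from 132, 79, 38 and 40 counts. In the colon it was 10.03 and 7.92 CPM in WT and 6.24 and 7.47 CPM in DDX5KO. The genotypes did not overlap in either tissue, yet the ratios of 0.675 in the ileum (0.452 to 1.01) and 0.763 in the colon (0.516 to 1.13) had intervals that include 1, with adjusted p of 0.416 and 0.534 in edgeR's test. For Ago3, WT colon had 31.4 and 36.4 CPM and DDX5KO colon 30.4 and 29.9 CPM, also without overlap, a ratio of 0.885 (0.727 to 1.08). Ago1 did not overlap in either tissue, with 35.5 and 35.2 CPM in WT colon and 32.0 and 32.7 in DDX5KO colon. In the ileum Ago1 was 37.7 and 36.7 CPM in WT and 30.1 and 36.3 in DDX5KO. Tarbp2 did not overlap in the colon, where DDX5KO was higher (19.1 and 18.0 against 16.4 and 17.6 CPM). The share of all genes without such overlap was not counted, so it cannot be set beside any of these members. Ago1 and Ago2 had ratios of 0.908 and 0.980 in the colon and 0.889 and 1.06 in the ileum, with intervals from 0.709 to 1.33.

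Markers of other cell types also varied between these libraries. The summed level of 7 T cell markers was 46.7 and 35.9 CPM in WT colon and 6.62 and 19 CPM in DDX5KO colon, and 104 and 92.1 CPM in WT ileum and 106 and 60.4 CPM in DDX5KO ileum. Ptprc, the pan-leukocyte marker CD45, was 22.2 and 19.9 CPM in WT colon and 5.41 and 10.9 CPM in DDX5KO colon. In the ileum Ptprc was 46.2 and 67.8 CPM in WT and 42.0 and 42.2 CPM in DDX5KO. The other 6 T cell markers, without Ptprc, summed to 57.6 and 24.3 CPM in WT ileum and 64.3 and 18.2 CPM in DDX5KO ileum. The 3 tuft cell markers did not overlap between genotypes in either tissue, with sums of 53.0 to 59.6 CPM in WT colon, 16.4 to 38.0 in DDX5KO colon, 238 to 370 in WT ileum and 153 to 203 in DDX5KO ileum. The 5 Paneth cell markers summed to 1316 to 1504 CPM in WT colon and 203 to 390 CPM in DDX5KO colon, and overlapped in the ileum. The part of these cells in the levels of Ago3 and Ago4 was not tested, and in bulk samples fewer cells of a type and less RNA per cell cannot be told apart.

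**Figure D2:**
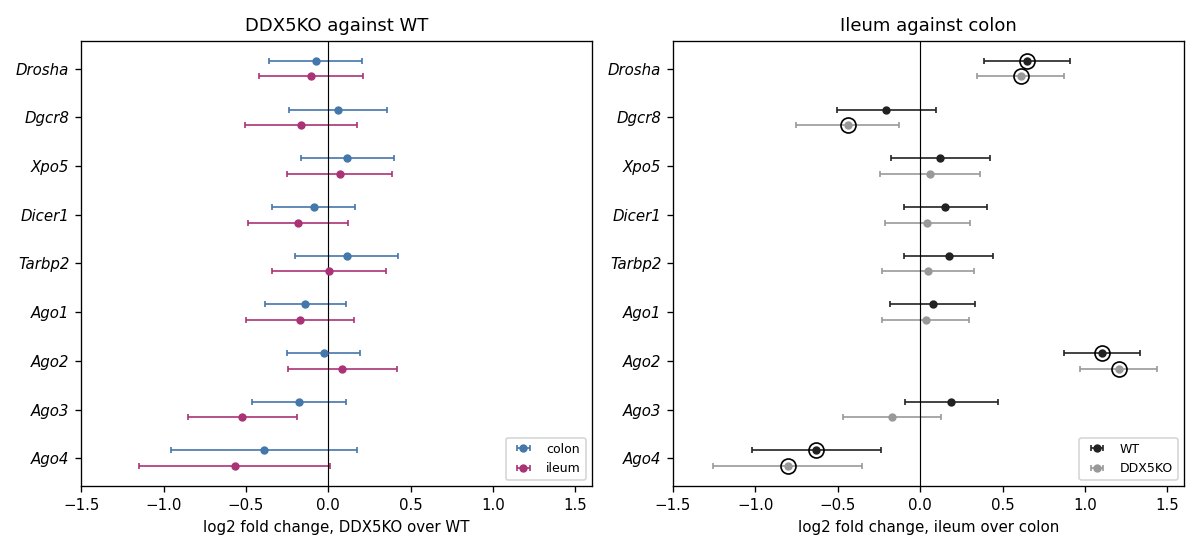
Fitted log2 fold change of the 9 genes with 95% intervals, DDX5KO over WT on the left (colon and ileum) and ileum over colon on the right (WT and DDX5KO). Open rings mark an adjusted p under 0.05 in edgeR's quasi-likelihood test, which 0 points have on the left and Drosha, Ago2 and Ago4 have in both genotypes on the right, with Dgcr8 in DDX5KO.

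Between the tissues, Drosha and Ago2 were higher and Ago4 was lower in ileum than in colon IECs, in WT and in DDX5KO. In WT 3 of 9 members passed the test, and in DDX5KO 4 of 9, the fourth being Dgcr8, which was lower in the ileum. The share of all 16178 genes that passed was 37.7% in WT and 37.8% in DDX5KO, so that the members' counts were near the background. Each ileum library was compared with the colon library of the same mouse. The tissue comparisons rest on the same libraries as the genotype comparisons.

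Ago2, the slicing Argonaute, was 111 and 118 CPM in WT colon and 240 and 252 CPM in WT ileum. In DDX5KO it was 104 and 123 CPM in the colon and 237 and 286 CPM in the ileum. All 4 ileum libraries were above all 4 colon libraries. The ileum over colon fold was 2.15 in WT (95% interval 1.83 to 2.53, adjusted p = 0.000242 in edgeR's test) and 2.30 in DDX5KO (1.96 to 2.71, adjusted p = 0.000170). The antisense neighbour Chrac1 was 9.11 to 11.3 CPM in all libraries.

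Drosha, with the CPM values given above, did not overlap between tissues either, at 28.6 to 36.3 CPM in the colon and 45.9 to 55.6 CPM in the ileum. Its fold was 1.57 in WT (1.31 to 1.88, adjusted p = 0.00382) and 1.53 in DDX5KO (1.27 to 1.83, adjusted p = 0.00557). Its partner Dgcr8 had the opposite sign, with a fold of 0.737 in DDX5KO (0.594 to 0.915, adjusted p = 0.0368 in edgeR's test) and 0.868 in WT (0.704 to 1.07, adjusted p = 0.253). The difference between these tissue effects of Dgcr8 had an adjusted p of 0.864. All 4 ileum libraries of Dgcr8 were at or below 28.5 CPM and all 4 colon libraries at or above 29.5 CPM. Trmt2a, which overlaps Dgcr8 on the other strand, was 19.1 to 24.4 CPM in the 8 libraries, with log2 tissue differences of -0.18 in WT and 0.065 in DDX5KO.

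Ago4 was lower in the ileum, with a fold of 0.646 in WT (0.492 to 0.848, adjusted p = 0.0231 in edgeR's test) and 0.572 in DDX5KO (0.419 to 0.782, adjusted p = 0.0154). Its ileum libraries lay between 3.56 and 6.09 CPM and its colon libraries between 6.24 and 10.03 CPM. DESeq2 with the same block did not call Ago4 in WT (adjusted p = 0.191) or in DDX5KO (0.107), nor Dgcr8 in DDX5KO (0.155), while it called Drosha and Ago2 in both. With 1 library left out, Ago4 was called in 4 of 8 fits in WT and 6 of 8 in DDX5KO (adjusted p up to 0.253), Dgcr8 in 5 of 8 in DDX5KO, and Drosha in 6 and 7 of 8. Ago2 was called in 8 of 8 in both genotypes.

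Xpo5, Dicer1, Tarbp2 and Ago1 did not pass the test between tissues, with folds of 1.05 to 1.13 in WT and 1.02 to 1.04 in DDX5KO. Their 95% intervals ran from 0.844 to 1.36. Ago3 had a fold of 1.14 in WT (0.936 to 1.39), where the ileum library exceeded the colon library in both mice. In DDX5KO its fold was 0.889 (0.724 to 1.09), where the ileum library was below the colon library in both mice. The difference between these tissue effects had an unadjusted p of 0.0777 and an adjusted p of 0.817 in edgeR's test. In the test of whether the tissue difference depends on genotype 0 of 9 members passed in edgeR, 0 had an unadjusted p under 0.05 and 0 passed in DESeq2. Over all 16178 genes 1 passed (0.00618%) and 1030 had an unadjusted p under 0.05 (6.37%). The interaction of Ago2 had a 95% interval of 0.856 to 1.34 as a ratio of folds, and that of Drosha 0.753 to 1.26.

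The tissues also differ in cell types. The 5 Paneth cell markers summed to 7596 to 11341 CPM in the ileum and 203 to 1504 CPM in the colon, 3 tuft cell markers to 153 to 370 and 16.4 to 59.6 CPM, and 7 T cell markers to 60.4 to 106 and 6.62 to 46.7 CPM. Higher in the colon were 4 goblet cell markers (21294 to 34142 CPM against 13966 to 20265 CPM in the ileum) and 4 enteroendocrine markers (77.0 to 115 against 41.0 to 75.2 CPM). The 5 fibroblast markers summed to 3.46 to 13.9 CPM in the colon and 1.87 to 4.31 CPM in the ileum. The part of these cell types in the tissue differences of the 9 genes, and of the other transcripts below, was not tested.

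Ratios of 2 genes within a library do not depend on the scaling between libraries. The Drosha to Dgcr8 ratio of counts was 1.11 and 1.02 in WT colon, 0.841 and 1.11 in DDX5KO colon, 1.95 and 1.89 in WT ileum, and 2.01 and 2.00 in DDX5KO ileum. It was higher in the ileum in 4 of 4 mice, on average 1.94-fold. The Ago2 to Ago1 ratio was 3.14 to 3.75 in the colon and 6.36 to 7.89 in the ileum, and the Ago4 to Ago1 ratio 0.195 to 0.283 and 0.118 to 0.161, without overlap. Dicer1 to Drosha was 2.21 to 2.81 in the colon and 1.63 to 1.94 in the ileum. Each of these 4 ratios moved the same way in all 4 mice, for which the exact two-sided sign-flip permutation test gave p = 0.125, the smallest that 4 mice allow. Ago3 to Ago1 and Dicer1 to Tarbp2, the 2 other ratios computed, overlapped between the tissues (p = 0.875 and 0.625 in the same exact test). These ratios come from the counts tested above and are not independent of those tests.

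**Figure D3:**
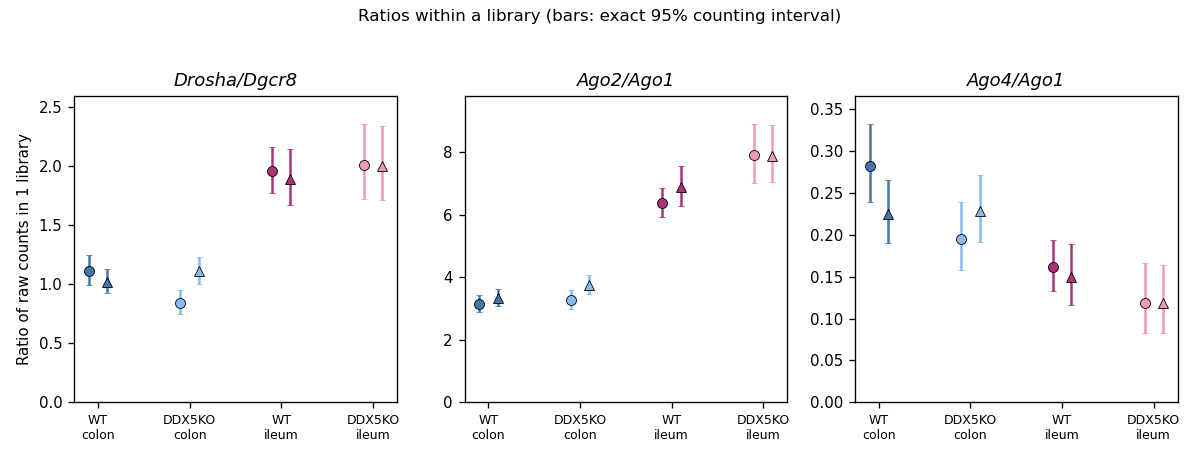
Ratio of raw counts of 2 genes within each library, by group, on linear axes from 0. Circles are replicate 1, triangles are replicate 2 and bars are exact 95% intervals for counting error only. Drosha/Dgcr8 and Ago2/Ago1 are higher and Ago4/Ago1 is lower in all ileum libraries than in all colon libraries.

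Ago2 made up the largest share of Argonaute counts in every library. It was 59.1% to 63.6% in the colon and 74.2% to 80.5% in the ileum. Per exon length the shares of Ago2 were 50.7% to 55.8% and 69.1% to 74.9%. Ago4 made up 3.61% to 5.33% of Argonaute counts in the colon and 1.204% to 1.924% in the ileum, the lowest of them from 38 of 3156 counts (95% Wilson interval 0.878% to 1.65%). The share of Ago1 was 17.0% to 18.9% in the colon and 10.2% to 11.9% in the ileum. The level of Ago1 itself had ileum over colon folds of 1.05 in WT and 1.02 in DDX5KO and did not pass the test.

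The genes that work with the machinery were grouped into 6 lists with 72 genes. No gene of these lists passed the genotype test in edgeR, of 67 tested in the colon (5 at an unadjusted p under 0.05) and 68 in the ileum (11). Over all genes that unadjusted threshold was passed by 12.0% in the colon and 12.3% in the ileum. Ddx17, the closest paralog of Ddx5 and likewise a Drosha cofactor, was 269 and 288 CPM in WT colon, 366 and 376 in DDX5KO colon, 247 and 282 in WT ileum, and 431 and 418 in DDX5KO ileum. Its libraries did not overlap between genotypes in either tissue, and its log2 fold changes were 0.40 (adjusted p = 0.271 in edgeR's test) and 0.69 (adjusted p = 0.103). How many of all genes separate in this way was not counted.

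Between tissues, 21 of 68 tested list genes passed in WT (16 higher and 5 lower in the ileum) and 16 in DDX5KO (12 higher and 4 lower), beside 37.7% and 37.8% of all genes. The list of 30 silencing effectors includes genes that remove the tail or the cap of a targeted message and other genes of these complexes. Of the 30, 12 were higher and 0 lower in WT ileum, and 10 were higher and 1 lower in DDX5KO ileum. The share of all genes called higher was 19.5% in WT and 19.4% in DDX5KO. Limd1, a LIM-domain protein of Argonaute complexes in P-bodies, was 75.3 to 78.9 CPM in the colon and 156 to 201 CPM in the ileum. Its log2 difference was 1.09 in WT and 1.2 in DDX5KO, close to that of Ago2. Pabpc1, the cytoplasmic poly(A)-binding protein, was 259 to 286 CPM in the colon and 494 to 649 CPM in the ileum, and Patl1, a decapping scaffold, was 16.1 to 19.5 and 26.3 to 42.0 CPM. Cnot6, a deadenylase of the CCR4-NOT complex, was 77.6 to 86.8 CPM in the colon and 105 to 143 CPM in the ileum. All 4 genes were higher in the ileum in both genotypes. Dcp1b, a decapping cofactor, was lower in DDX5KO ileum (-0.70, adjusted p = 0.00687 in edgeR's test), but was called in 2 of 8 fits with 1 library left out, over which its value ran from -1.02 to -0.42.

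Of 9 tested genes of microRNA tailing and turnover, 3 were higher and 1 lower in WT ileum, and 1 higher and 1 lower in DDX5KO ileum. Tut7, a terminal uridylyltransferase that acts on hairpin precursors, was 130 to 150 CPM in the colon and 198 to 223 CPM in the ileum. Parn, a poly(A) ribonuclease, was lower, at 21.3 to 25.1 CPM in the colon and 14.9 to 17.6 CPM in the ileum. Of 17 Microprocessor accessory genes, 1 was higher and 2 lower in WT ileum and 1 higher in DDX5KO ileum. Among them were Taf15 (0.52) and Ewsr1 (-0.31) in WT, and Khsrp (0.38), which binds the loop of some hairpins, in DDX5KO. Ewsr1 was called in 2 of 6 alternatives, Khsrp in 4 of 6 and Taf15 in 6 of 6, but each in at most 3 of 8 fits with 1 library left out. Of 7 Dicer partners and loading factors, 1 was lower in both genotypes, namely Tsnax (-0.33 and -0.44), a subunit of the nuclease that clears the passenger strand, which was called in 3 of 6 alternatives in WT and 6 of 6 in DDX5KO. The 3 nuclear transport genes did not pass the test, with log2 differences of 0.14 to 0.29. Of the PIWI-clade Argonautes, Piwil4 was 6.20 to 6.78 CPM in the colon and 1.03 to 1.80 CPM in the ileum and was lower in both genotypes (log2 -1.97 and -2.27). Piwil2 stayed at or under 1.22 CPM.

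Primary microRNA host transcripts, the substrates of the Microprocessor, were counted where they are annotated as long RNAs. Of 14 such transcripts, 7 were tested in the colon and between tissues and 3 in the ileum. Of these, 0 passed the genotype test in edgeR. In the ileum over colon comparison 0 were higher and 3 lower in WT, and 0 higher and 4 lower in DDX5KO. Of all genes 18.3% were lower in each, but the host counts cannot be weighed against that share. Meg3, Rian and Mirg, called lower in both genotypes, passed the low-count filter only through the colon libraries, where they are high. Meg3, Rian and Mirg are noncoding RNAs of the imprinted Dlk1-Dio3 domain on chromosome 12, where Mirg carries a run of microRNA hairpins. Of these, Rian had 1047 and 1359 counts in WT colon and 1577 and 1837 in DDX5KO colon, but 10, 6, 2 and 10 in the ileum libraries. Meg3 had 801 to 1500 counts in the colon and 5 to 21 in the ileum, and Mirg 152 to 233 and 1 to 4. The log2 difference of Rian was -6.98 in WT and -7.13 in DDX5KO, and that of Meg3 -6.19 and -5.78 (adjusted p at most 6.6e-05 in edgeR's test).

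Within the colon, both DDX5KO libraries were above both WT libraries for Rian (87.0 and 83.7 against 55.0 and 59.8 CPM), Meg3 (75.1 and 68.4 against 42.1 and 43.4 CPM) and Mirg (11.9 and 10.6 against 7.98 and 7.09 CPM). The log2 fold changes were 0.56, 0.74 and 0.57, with unadjusted p of 0.00248, 0.000893 and 0.0179 and adjusted p of 0.246, 0.211 and 0.337 in edgeR's test. These 3 transcripts come from 1 locus and are not independent observations. Mir22hg, the host of miR-22, was 19.4 to 28.2 CPM in the colon and 22.1 to 30.5 CPM in the ileum. Mir17hg, the host of the miR-17 and miR-20a sequences above, was 5.41 to 8.40 CPM in all libraries and passed no test. Dleu2, at whose locus the miR-15a and miR-16 hairpins lie, was 32.8 and 37.9 CPM in DDX5KO colon and 22.6 and 24.2 CPM in DDX5KO ileum (log2 -0.59, adjusted p = 0.0291). In WT it was 29.7 and 31.6 CPM in the colon and 25.6 and 42.4 CPM in the ileum (log2 0.11, adjusted p = 0.638). The interaction of Dleu2 had an adjusted p of 0.750 in edgeR's test, and its call in DDX5KO held in 4 of 6 alternatives and in 2 of 8 fits with 1 library left out.

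**Figure D4:**
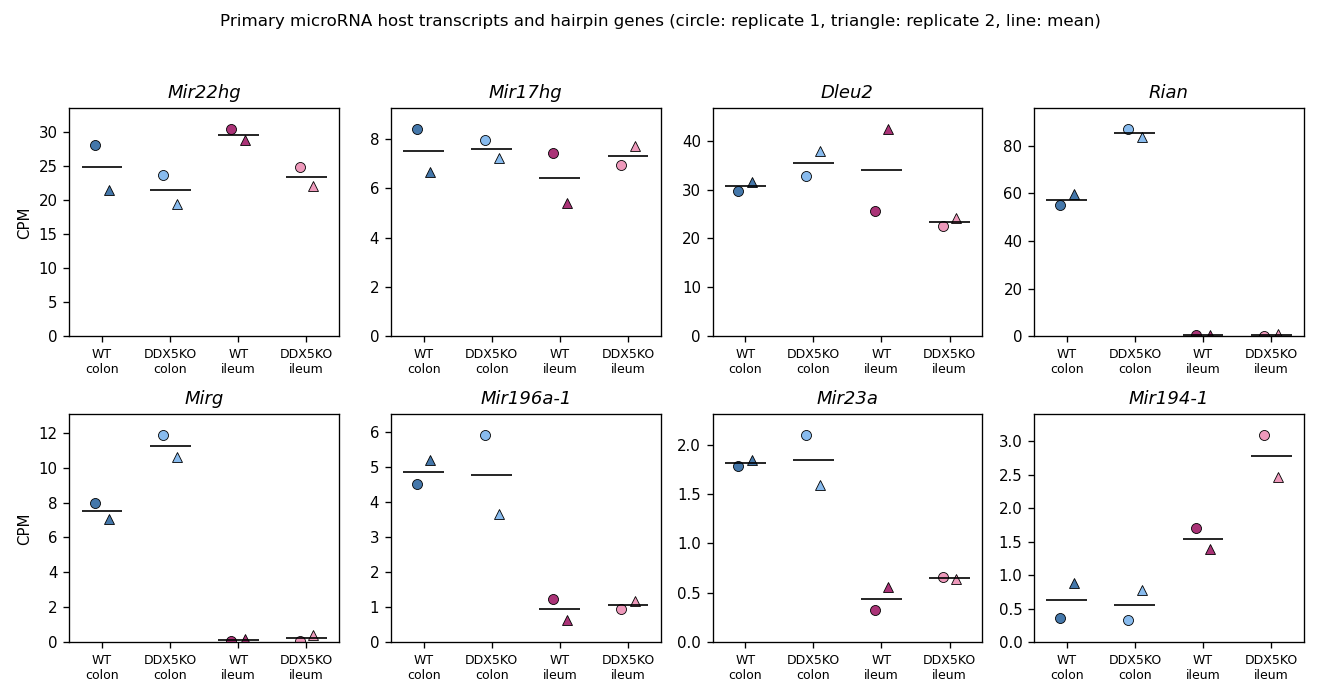
Level of 5 primary microRNA host transcripts and 3 hairpin genes in the 8 libraries, as CPM on linear axes from 0, by group. Circles are replicate 1, triangles are replicate 2 and lines are the mean, and Rian and Mirg are near 0 in the ileum while Mir22hg and Mir17hg are present in all libraries.

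The tables also list 861 genes of type miRNA, of which 46 passed the filter on low counts in the colon, 23 in the ileum and 52 between tissues. Reads on such a row can come from a longer transcript that covers the hairpin, and the sources cannot be told apart in these counts. Between tissues 8 of 52 passed in WT (3 higher and 5 lower in the ileum) and 13 of 52 in DDX5KO (6 higher and 7 lower). Over all genes the share was 37.7% in WT and 37.8% in DDX5KO, but the hairpin counts cannot be weighed against it. Many of these rows have low counts, and some passed the low-count filter only through the tissue where they are high. Mir196a-1, in the Hoxb cluster on chromosome 11, had 80 to 118 counts in the colon and 9 to 27 in the ileum. It was lower by -2.32 in WT and -2.16 in DDX5KO on the log2 scale (adjusted p = 0.0028 and 0.0063 in edgeR's test). Mir23a had 34 to 42 counts in the colon and 6 to 8 in the ileum, and was lower in both genotypes (-2.08 and -1.5). Mir27a, on the same strand of chromosome 8 as Mir23a, had 8 to 30 counts in the colon and 2 to 8 in the ileum, and was lower in DDX5KO (-2.20). Mir23a and Mir27a passed the low-count filter only through the colon libraries, where they are high, so the direction of their calls cannot be weighed. Mir200a, of an epithelial microRNA family, was 4.36 and 4.51 CPM in DDX5KO colon and 2.44 and 1.18 CPM in DDX5KO ileum and was lower there (-1.30). Mir194-1, of a microRNA known from the small intestine, had 6 and 17 counts in DDX5KO colon and 33 and 23 in DDX5KO ileum and was higher there (2.31). In WT Mir194-1 had 7 and 20 counts in the colon and 37 and 20 in the ileum. Mir194-2, which gives the same miR-194-5p, was not called. Its mean was 1.85 CPM in DDX5KO colon and 1.90 in DDX5KO ileum, and 1.03 in WT colon and 1.43 in WT ileum. The calls of Mir23a, Mir27a and Mir200a in DDX5KO were lost in DESeq2 with the block (adjusted p of 0.193, 0.118 and 0.0856). With 1 library left out, Mir27a was called in 2 of 8 fits, Mir23a in 5 of 8 and Mir200a in 7 of 8 in DDX5KO.

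The other calls of this type rest on low counts or on rows of unequal replicates. In both genotypes Mir3971, Mir5107 and Mir6407 were higher in the ileum, each with 0 to 3 counts in the colon libraries, and Gm27463 was lower, with 0 or 1 counts in the ileum. Each of these rows passed the low-count filter only through the tissue where it is high. In DDX5KO Mir1936 and Mir3109 were higher and Mir1938 and Mir3081 lower in the ileum. Mir3081 also passed the filter only through the colon libraries. With 1 library left out, Mir1938 was called in 0 of 8 fits (log2 -1.04 to -0.29), Mir3109 in 1 of 8 and Mir1936 in 4 of 8. In WT Gm24270 and Mir6236 were lower, and neither was called when any library was left out. The 3 rows with the highest mean count were Gm23935 (79642 to 570347 counts), Gm25911 (142 to 3487) and Mir6236 (151 to 1204). Gm25911 was the 1 row of this type that passed the genotype test, in the ileum, with 102 and 9.85 CPM in WT and 252 and 27.8 CPM in DDX5KO (log2 1.40, adjusted p = 0.00328 in edgeR's test). Replicates of 1 genotype thus differed more than the genotypes did, and over the fits with 1 library left out the value ran from -1.03 to 3.83 with 0 of 8 calls. The Mir1306 hairpin inside Dgcr8 has no row of its own in the tables.

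Across the 8 libraries, the protein-coding genes whose log2 CPM was most like that of Drosha were Tubb2b, Pik3cb and Sh3bp4 (Pearson's r of 0.996, 0.990 and 0.989 among 13100 genes). Those most like Ago2 were Cmip, Myo1d and Fmo5 (0.996, 0.996 and 0.996), and those most like Dicer1 were Celf5, Gpkow and 2310057M21Rik (0.975, 0.965 and 0.965). Among the members, Drosha and Ago2 had an r of 0.962, Drosha and Dgcr8 -0.711, and Dicer1 and Ago1 0.826. These are descriptions over 8 libraries that share 4 mice and 2 tissues, and for Drosha and Ago2 the libraries fall into a colon and an ileum cluster.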

How the data were processed

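RNA of EDTA-released IECs was depleted of ribosomal RNA and sequenced as 100-base paired-end reads. The authors aligned reads to mm10 with STAR (version 2.6.1a) and counted uniquely mapped reads over exons with featureCounts, and the deposited raw counts per gene, not normalized, were used here. Their normalized values, log2 fold changes and p-values (DESeq2 version 1.18.1) were not used. The deposited columns that hold no library used here number 0. Gene symbols that read as calendar dates (51) were put back to symbols.

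Library totals were 11571061 to 22984283 counts, and intervals on counts and shares cover counting error only. Labels gave the groups, and replicates are separate mice. Counts were fitted with edgeR (version 4.0.16, R 4.3.3, limma 3.58.1), after filterByExpr with a minimum count of 10 and TMM scaling, by the quasi-likelihood test with Benjamini-Hochberg adjustment over all genes tested at 0.05. All 9 members passed the filter in every comparison. Genotype fits within a tissue had the replicate number as a block. The study fitted a harvest term, but which mice shared a harvest is not given in the sources used here, and whether the number stands for it is not known. Tissue and interaction fits used all 8 libraries with the mouse as a block, since colon and ileum of 1 number and genotype come from the same mouse by the study's records. Deviations correlated at 0.131 and 0.143 within mice across tissues, and at 0.0031 in the colon and 0.167 in the ileum between genotypes of the same number. CPM values share 1 TMM scale, and levels per kb use the deposited exon length. Ratios used SciPy 1.17.1 (Python 3.11.15, pandas 2.3.3).

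Alternatives were DESeq2 (version 1.42.0), RLE scaling, other filters, fits without the block, without 3 repeat-like genes and without each library. The fits without each library used the remaining libraries of both tissues in 1 model with a mean per group and no block. In simulated counts with 200 genes changed by 1.5 on the log2 scale, 89.0% were recovered in the colon comparison (15362 genes). These were 178 genes, beside 52 false calls. In the ileum comparison (14068 genes) 86.0% were recovered, which were 172 genes beside 19 false calls. Over 16178 genes 77.5% were recovered between WT tissues, 70.0% between DDX5KO tissues and 58.5% in the interaction, with 23, 20 and 20 false calls. Recovery of differences smaller than 1.5 was not tested. The members' fitted log2 values between genotypes were all smaller, from -0.39 to 0.12 in the colon and -0.57 to 0.084 in the ileum.

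The members and lists were chosen with earlier results of these data known. All members were named, with Ddx5, up to 4 called genes per list with the smallest p, called host transcripts and hairpin genes, the 3 hairpin rows with the highest mean count, and the 3 genes most correlated with Drosha, Dicer1 and Ago2. Ddx17, Piwil2, Mir22hg, Mir17hg, Trmt2a and Chrac1 were named outside that rule, after their values were seen. One called gene of the lists is not reported here by name. Mature sequences were matched by name to RefSeq for 478 of 513 named hairpin genes. Positions and exon overlaps are from GENCODE vM21 on GRCm38, a later release than the authors' vM19.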

Additional observations from a re-analysis of the deposited data

How the results depend on the processing

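The log2 fold changes of the members kept their direction and their side of the threshold in 298 of 306 values under the alternatives, became weaker in 3 and reversed in 5. No genotype or interaction call of a member arose under any alternative or left-out library. All 5 reversals came without a filter on low counts and were near 0, namely Tarbp2 in the ileum genotype comparison (-0.036) and, between DDX5KO tissues, Xpo5 (-0.021), Dicer1 (-0.037), Tarbp2 (-0.032) and Ago1 (-0.049). DESeq2 with the block reduced the members called between DDX5KO tissues from 4 to 2 and weakened Ago4 in both genotypes and Dgcr8 in DDX5KO. The causes were not tested.

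With 1 library left out, in fits that assume the lone sample of a group to vary like the other groups, 320 of 360 values were unchanged in direction and call, 12 were weaker and 28 reversed. Members called between tissues numbered 1 to 3 in WT, with 1 without WT colon replicate 1 or WT ileum replicate 1, and 2 to 4 in DDX5KO, with 2 without DDX5KO colon replicate 1, DDX5KO colon replicate 2 or DDX5KO ileum replicate 1. Drosha lost its WT call without WT colon replicate 1 (adjusted p = 0.0754) or WT ileum replicate 1 (0.0629) and its DDX5KO call without DDX5KO colon replicate 1 (0.0728), all in edgeR's test. In the colon genotype comparison the log2 values ran from -0.24 to 0.099 for Drosha, -0.045 to 0.18 for Dgcr8, -0.037 to 0.29 for Xpo5, -0.18 to 0.014 for Dicer1 and -0.14 to 0.096 for Ago2. In the ileum they ran from -0.028 to 0.17 for Xpo5, -0.068 to 0.074 for Tarbp2 and -0.036 to 0.21 for Ago2. Between WT tissues Xpo5 ran from -0.046 to 0.28 and Ago3 from -0.060 to 0.42. Between DDX5KO tissues Xpo5 ran from -0.030 to 0.16, Dicer1 from -0.079 to 0.18, Tarbp2 from -0.019 to 0.13 and Ago1 from -0.082 to 0.16. For the interaction the ranges were -0.21 to 0.14 for Drosha, -0.22 to 0.10 for Xpo5, -0.22 to 0.032 for Dicer1, -0.15 to 0.086 for Ago1 and -0.012 to 0.23 for Ago2.

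Without the replicate block 0 members were called between genotypes in the colon and 0 in the ileum, 3 between WT tissues, 4 between DDX5KO tissues and 0 in the interaction, so that the block changed no count of member calls. With 2 pairs a comparison, and a correlation of 0.0031 in the colon, the numbers are not shown to pair the genotypes. Counts over all genes moved more. In the colon 0 genes became 5 without the block, 10 with all 8 libraries in 1 fit, 116 in DESeq2 with the block and 188 without it, and 0 to 193 with 1 library left out. In the ileum 98 became 1 without the block, 7 with all 8 libraries, 39 and 55 in DESeq2 with and without the block, 20 without the 3 repeat-like genes, 423 without a filter, and 0 to 1 with 1 library left out. The interaction count of 1 became 2 without the block, 42 in DESeq2, 318 without a filter, and 0 to 30 with 1 library left out. Members past the study's criterion in the ileum numbered 1, 2 without a filter or with all 8 libraries in 1 fit, and 0 to 2 with 1 library left out. RLE scaling moved no library by more than 0.037 on the log2 scale. By CPM not divided by length, Ago2, Dicer1, Tarbp2 and Ago4 ranked 1st, 2nd, 8th and 9th in every group, while Drosha ranked 3rd in both ileum groups, 6th in WT colon and 5th in DDX5KO colon. Groups of 2 mice and counts as low as 38 for Ago4 limit what could be detected.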
